A study of Mus musculus with 4 samples.

Results

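Ephrins are membrane-bound ligands, and Eph receptors are the receptor tyrosine kinases that bind them on neighbouring cells. The 10 genes described here are the ephrin genes Efnb1, Efnb2, Efna1, Efna4 and Efna5 and the receptor genes Ephb1, Ephb2, Ephb4, Ephb6 and Epha2, out of 53715 genes in the deposited tables. They were found by gene symbol, and the set had been chosen by its differences between the knockout and wild-type libraries with those values known. Their differences are therefore given as a description, with no test of the set. The other 12 ephrin and Eph receptor genes of the mouse are given beside them.

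The libraries came from CD4+CD8+ double-positive thymocytes sorted from the thymus of C57BL/6 mice aged 6 to 8 weeks. The wild-type (WT) group had 2 libraries. The knockout (KO) group had 2 libraries from mice of genotype LCKCre/+ Srsf1fl/fl, in which Cre, driven by the T-lineage promoter Lck, acts on a floxed gene for the splicing factor SRSF1. The labels do not say whether the libraries of a group came from separate animals, so the spread between them may be technical. They also do not say whether the WT mice carried Cre or a floxed allele.

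Ephrin-A ligands are anchored to the membrane by a lipid, whereas ephrin-B ligands span it and can signal into the cell that carries them. Binding at a cell contact thus sends a forward signal through the Eph receptor and, for ephrin-B, a reverse signal through the ligand, and both act on adhesion and the actin cytoskeleton. In the thymus, ephrin-B ligands and EphB receptors are known to be carried by thymocytes and by epithelial cells, where they take part in contacts between the cell types.

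Each library held 35862730 to 37033180 counts. Srsf1, the targeted gene, had an RPKM (counts scaled by gene length and library total) of 23.5 and 21.5 in WT against 8.70 and 8.53 in KO (log2 fold change -1.39, SE 0.09). It was thus lower in both KO libraries but still counted, and the labels do not say which exons the floxed allele removes. Its exons share 98 bases with an antisense gene, and the sources used here do not give the strand setting of the counts. At an adjusted p under 0.05 by edgeR, 6.63% of all genes tested rose in KO and 7.89% fell. All 8 marker genes of double-positive thymocytes were tested, of which 5 rose and 0 fell. Their summed RPKM was 2430 to 2540 in WT and 3450 to 3550 in KO, with Rag1 rising from 307 ± 13.5 to 565 ± 20.7 RPKM (SD, n = 2) and Cd4 at 306 ± 8.20 and 343 ± 1.53 RPKM.

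The promoters of Efnb1 and Efnb2 are shown because these were the 2 genes of the set that were lower in KO. All 10 genes of the set had a promoter entry. Each window runs 5′ to 3′ from 250 bases before to 50 bases after the start site in RefSeq on GRCm38.p6. Efnb1 lies on the plus strand at chrX:99135811-99136110 and Efnb2 on the minus strand at chr8:8661193-8661492. The Efnb1 window ends before the gene's start at 99136130 in GENCODE M21, since the annotations place the start site differently. Capitals mark the CCAAT box, the letters CCAAT on either strand.
Efnb1: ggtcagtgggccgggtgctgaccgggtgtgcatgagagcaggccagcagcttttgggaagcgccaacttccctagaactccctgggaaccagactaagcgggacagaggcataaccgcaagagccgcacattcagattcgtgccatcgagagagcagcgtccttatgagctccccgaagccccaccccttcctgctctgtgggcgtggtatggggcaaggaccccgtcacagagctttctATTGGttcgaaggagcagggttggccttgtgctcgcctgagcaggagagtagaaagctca
Efnb2: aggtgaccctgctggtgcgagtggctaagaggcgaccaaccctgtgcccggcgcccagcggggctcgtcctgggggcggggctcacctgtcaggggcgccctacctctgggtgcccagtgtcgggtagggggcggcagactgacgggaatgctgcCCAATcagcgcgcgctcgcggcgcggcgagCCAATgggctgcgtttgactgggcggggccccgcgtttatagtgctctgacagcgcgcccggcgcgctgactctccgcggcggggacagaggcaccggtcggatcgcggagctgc

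The windows differed in base composition. The Efnb1 window held 14 CpG dinucleotides and the Efnb2 window held 35, more than in 93.0% of the 32851 mouse promoter windows of the same length, whose median was 7. In the Efnb1 window the CCAAT box matched only on the opposite strand. There the strand shown reads ATTGG, from 10 bases before the start site. On the strand shown, CCAAT boxes began 95 and 65 bases before the start site of Efnb2. That motif was present in 37.4% of all windows. Efnb2 also held 3 GC boxes (GGGCGG, in 35.7% of windows) and 1 E-box (CANNTG, in 72.3%). The TATA box letters TATAAA (in 13.6% of windows) matched only on the opposite strand, beginning 30 bases before the start site. On the strand shown that stretch reads TTTATA. The GC box, E-box and TATA box had no match in the Efnb1 window. Neither window held the AP-1 motif TGANTCA (7.81% of windows), the CRE TGACGTCA (1.79%), the RBPJ motif GTGGGAA (6.38%) or the NBRE AAAGGTCA (1.51%). All motifs were searched on both strands, and matches of different motifs did not overlap in either window. A match or its absence describes these letters only.

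The ephrin-B ligand genes Efnb1 and Efnb2 were lower in both KO libraries, while the third ephrin-B gene, Efnb3, was higher in both without passing the test. Efnb2 encodes ephrin-B2, a transmembrane ligand best known from arterial development. It had 914 and 1044 counts in WT against 204 and 84 in KO, or an RPKM of 3.72 and 4.17 against 0.804 and 0.337. Both KO libraries were thus far below both WT libraries. The mean went from 3.94 ± 0.320 to 0.570 ± 0.330 RPKM (SD, n = 2), a level 6.91-fold lower in the fit over all genes (log2 fold change -2.79, SE 0.32). In the single libraries the ratio of WT to KO ranged from 4.63 to 12.4. The gene (ENSMUSG00000001300.16, chromosome 8, 8617434 to 8661242, minus strand, GRCm38) shares no exon bases with another annotated gene.

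Efnb1 encodes ephrin-B1, another transmembrane ligand of EphB receptors. The WT counts of 250 and 279 compared with 38 and 70 in KO, an RPKM of 2.02 and 2.21 against 0.297 and 0.557. The groups again did not overlap. The mean went from 2.12 ± 0.137 to 0.427 ± 0.184 RPKM (SD, n = 2), a level 4.93-fold lower (log2 fold change -2.30, SE 0.41). The ratio of WT to KO in the single libraries ranged from 3.62 to 7.45. Efnb1 (ENSMUSG00000031217.8, chromosome X, 99136130 to 99148991, plus strand) overlaps no other annotated gene. Its call was lost with limma on log2 of the RPKM plus 0.1 (log2 fold change -2.12, adjusted p = 0.0555).

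The KO libraries differed from each other in opposite directions for these genes. Efnb2 was 2.39-fold higher in KO replicate 1 than in KO replicate 2 (exact 95% interval 1.84 to 3.11), and for Efnb1 the same ratio was 0.533 (0.350 to 0.803). Neither interval held 1, although they cover counting error only. The corresponding ratios between WT replicates 1 and 2 were 0.891 (0.815 to 0.975) for Efnb2 and 0.912 (0.766 to 1.09) for Efnb1. Without KO replicate 1 the log2 fold change of Efnb2 was -3.53, without KO replicate 2 it was -2.30, and those of Efnb1 were -1.90 and -2.83 in the same order. The size of each decrease thus varied with the KO library used by more than 1.5-fold, while both genes were called in every such fit.

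**Figure D1:**
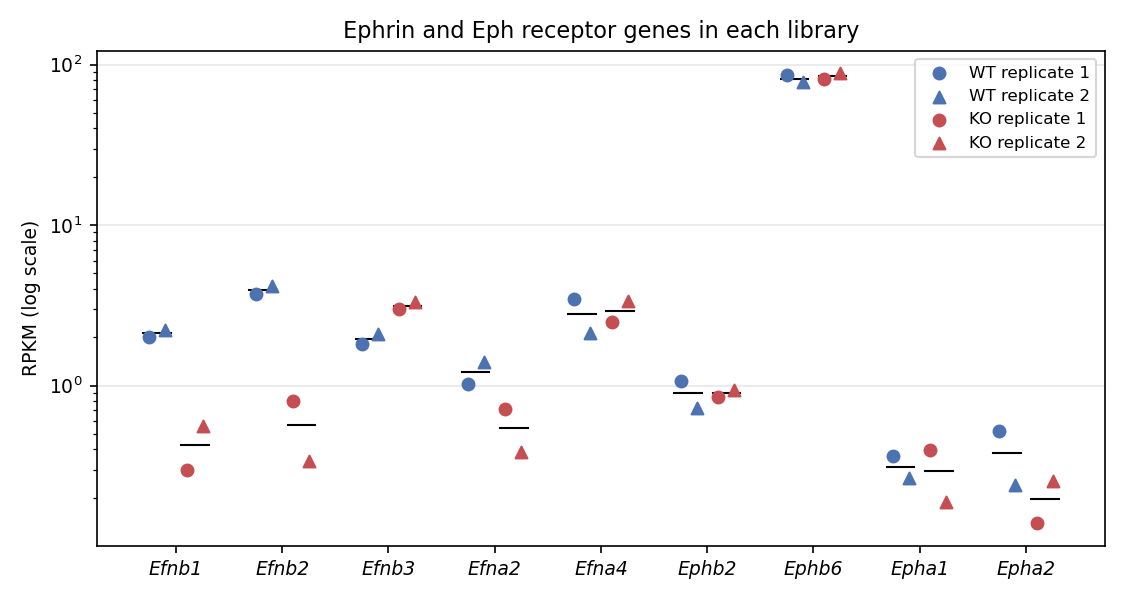
RPKM on a log axis of the 9 ephrin and Eph receptor genes with a mean of at least 0.1 RPKM over the 4 libraries, by library (WT in blue, KO in red, circles for replicate 1 and triangles for replicate 2), with group means as black lines. Efnb1 and Efnb2 show both KO libraries far below both WT libraries, and Ephb6 lies above all others at 77.5 to 88.3 RPKM.

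Efnb3 was not in the chosen set and completes the ephrin-B class. Counts of 207 and 245 in WT stood against 352 and 383 in KO, with 1.96 ± 0.208 and 3.15 ± 0.227 RPKM (SD, n = 2). The KO libraries were both higher, yet the gene did not pass the edgeR quasi-likelihood test (log2 fold change 0.68, SE 0.27, adjusted p = 0.113). As a share of the summed ephrin-B RPKM, Efnb3 made up 24.0% and 24.8% in WT and 73.1% and 78.7% in KO. Efnb2 made up 49.2% and 49.1% in WT and 19.7% and 8.02% in KO. The leading ephrin-B transcript was therefore Efnb2 in both WT libraries and Efnb3 in both KO libraries. The summed RPKM of the class was 7.55 and 8.49 in WT and 4.09 and 4.20 in KO.

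**Figure D2:**
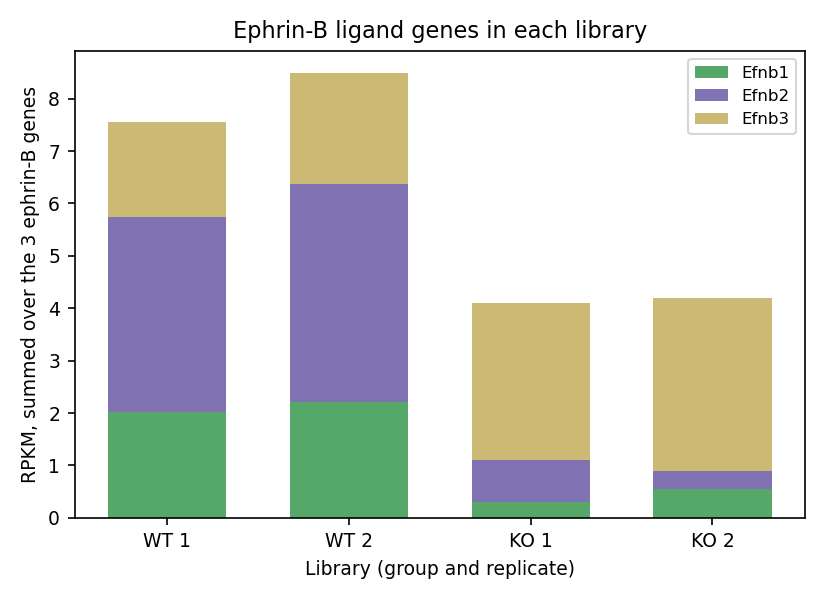
Stacked bars of the RPKM of Efnb1, Efnb2 and Efnb3 in each of the 4 libraries. The bars reach 7.55 and 8.49 in WT and 4.09 and 4.20 in KO, and the Efnb3 segment is the largest in both KO libraries.

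Of the 10 genes, 6 passed the filter on low counts and were tested. Of these 6, 0 were called higher and 2, Efnb1 and Efnb2, were called lower, at an adjusted p under 0.05 by edgeR. Over all 16588 genes tested, 14.5% were called, 7.89% lower and 6.63% higher. Ranges of KO and WT were separate (no overlap) for 2 of the 6, against 55.9% of all genes tested. Since the set was chosen on this contrast, nothing is read from these counts. In bulk libraries fewer cells carrying a transcript and less transcript per cell cannot be told apart.

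Among the ephrin-A ligands, Efna4 was the main transcript of the set. It had 199 and 124 counts in WT and 147 and 197 in KO, or 3.47 and 2.12 against 2.48 and 3.39 RPKM. The groups overlapped, and the fold change was small beside its error (log2 fold change 0.07, SE 0.38). Its direction turned without WT replicate 2 (-0.24) and without KO replicate 2 (-0.17). Efna4 shares 168 exon bases with the antisense gene 4731419I09Rik. The sources used here do not say how reads in those bases were counted, so the effect of the overlap on its counts is not known.

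Efna1 and Efna5 were close to the limit of counting. Efna1 had 13 counts in WT replicate 2 and 1 count in each other library, so a single WT library held nearly all of its reads. Efna5, known as a guidance cue in the nervous system, had 1 count in WT replicate 1 and in KO replicate 2 and none in the others, where a count of 0 allows up to 0.0204 and 0.0201 RPKM (3 counts). Efna1, Efna3 and Efna4 lie next to each other on chromosome 3, with 32.8 kb between Efna1 and Efna3 and 10.4 kb between Efna3 and Efna4. Efna3, outside the set, had at most 3 counts, so Efna4 was the expressed gene of this cluster.

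Efna2, outside the set, was the other ephrin-A gene that was tested. It had 78 and 110 counts in WT and 56 and 30 in KO, with 1.22 ± 0.278 and 0.548 ± 0.228 RPKM (SD, n = 2). The KO libraries were both lower, but the gene did not pass the edgeR test (log2 fold change -1.15, SE 0.58, adjusted p = 0.231). The summed ephrin-A RPKM was 4.52 and 3.74 in WT and 3.24 and 3.79 in KO, so the groups overlapped.

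Among the receptors, Ephb6 stood far above the rest. It encodes EphB6, which lacks kinase activity and can act through partner receptors. It had 11609 and 10682 counts in WT and 11404 and 12120 in KO, an RPKM of 85.8 and 77.5 against 81.6 and 88.3. The groups overlapped, and the fold change was 0.06 log2 units (SE 0.08), the smallest error in the set. Its mean of 81.7 ± 5.84 RPKM in WT and 84.9 ± 4.71 RPKM in KO (SD, n = 2) exceeded that of 96.9% of tested genes in each group. Ephb6 made up 98.6% to 99.0% of the summed EphB RPKM in the 4 libraries. The gene (ENSMUSG00000029869.7, chromosome 6, 41605482 to 41620509, plus strand) overlaps no other annotated gene.

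Ephb2 encodes EphB2, a kinase-active receptor for ephrin-B ligands. It had 486 and 335 counts in WT and 398 and 429 in KO, or 1.07 and 0.728 against 0.852 and 0.935 RPKM. Both KO values lay between the WT values (log2 fold change -0.01, SE 0.25). It made up 1.03% and 1.05% of the summed EphB RPKM in KO.

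Ephb4, the receptor of ephrin-B2 on venous endothelium, had 10 and 2 counts in WT and 3 and 6 in KO. Its exons share 33 bases with Zan. Ephb1 had 1 count in WT replicate 1 and 0 in the other libraries, which allows up to 0.0116 to 0.0118 RPKM there. Neither passed the filter on low counts, so neither was tested. Ephb3, outside the set, was tested. With 22 and 15 counts in WT and 11 and 6 in KO, it did not pass the edgeR test (log2 fold change -1.14, SE 1.40, adjusted p = 0.690).

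Epha2 was the EphA receptor of the set and is best known from epithelial cells. It had 87 and 41 counts in WT and 24 and 43 in KO, or 0.519 and 0.240 against 0.139 and 0.253 RPKM. KO replicate 2 lay above WT replicate 2, so the groups overlapped, and the fold change was not called (log2 fold change -0.95, SE 0.71). The value was -0.28 without WT replicate 1 and -1.45 without KO replicate 2, so single libraries moved it. Epha1, outside the set, had 51 and 38 counts in WT and 58 and 27 in KO (log2 fold change -0.09, SE 0.72, edgeR adjusted p = 0.963), and 236 of its exon bases lie within exons of Zyx. The summed EphA RPKM was 0.498 to 0.888 over the 4 libraries, against 78.3 to 89.3 for EphB.

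**Figure D3:**
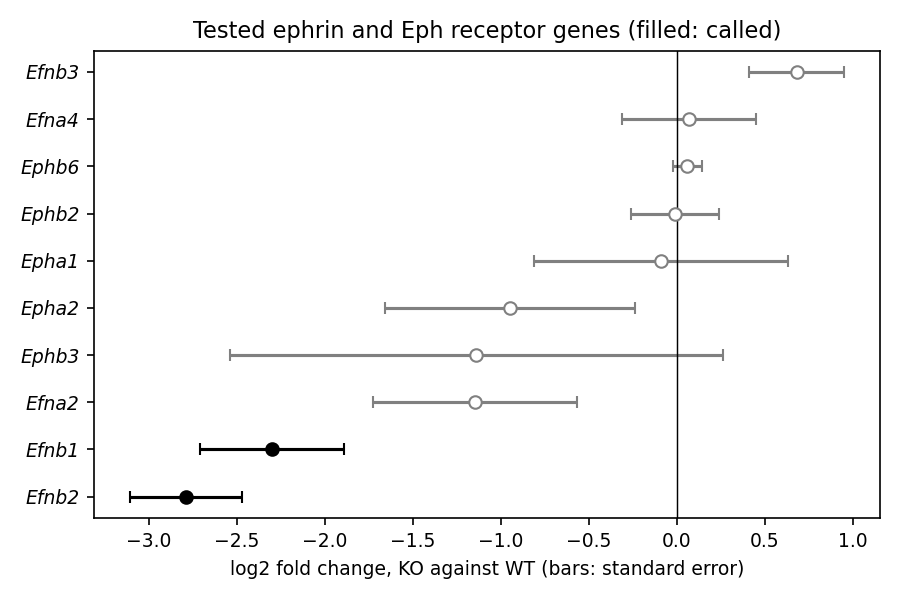
Log2 fold change of KO against WT with its standard error for the 10 tested ephrin and Eph receptor genes, 6 of the set and 4 others, with called genes filled. Efnb2 (-2.79) and Efnb1 (-2.30) are the filled points, and Ephb6 has the shortest bar (SE 0.08).

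Of the other 12 genes of the family, 4 were tested (Efna2, Efnb3, Epha1 and Ephb3). None was called by edgeR in either direction, 1 (Efnb3) had an unadjusted p under 0.05, and DESeq2 and limma-voom called 0 as well. A further 4 (Epha5, Epha6, Epha7 and Epha8) had 0 counts in every library. The remaining 4 (Efna3, Epha3, Epha4 and Epha10) had at most 11 counts in a library.

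The order of levels per length changed between the groups. In WT the order by mean RPKM was Ephb6 (81.7), Efnb2 (3.94), Efna4 (2.80), Efnb1 (2.12), Ephb2 (0.901) and Epha2 (0.380). The ranges of the WT libraries overlapped for Efna4 and Efnb1 and for no other neighbours among these 6. In KO the order was Ephb6 (84.9), Efna4 (2.93), Ephb2 (0.894), Efnb2 (0.570), Efnb1 (0.427) and Epha2 (0.196), with overlapping ranges for Efnb2 and Efnb1 only. Efnb2 thus ranked above Efna4 and Ephb2 in WT and below both in KO, and Efnb1 ranked above Ephb2 in WT and below it in KO. Efna1, Ephb4, Efna5 and Ephb1 were the lowest 4 in both groups.

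Efnb1, Efnb2, Ephb4 and Epha2 are also expressed by cells that could accompany sorted thymocytes, so the markers of those cells are given beside them. Of 8 thymic epithelial markers, Krt5, Krt14 and Foxn1 were at 0 counts in every library and Aire had at most 1. The summed RPKM of that list was 6.23 and 7.09 in WT and 5.94 and 4.95 in KO, mostly from Epcam. Within it, Ccl25 had 241 and 242 counts in WT and 92 and 138 in KO, and Krt8 had 26 and 19 against 4 and 7, so both were lower in KO, as Efnb1 and Efnb2 were. Neither passed the edgeR test (adjusted p = 0.0630 and 0.408). The groups overlapped for the other tested markers of the list, Psmb11 with 46 and 51 counts in WT and 42 and 54 in KO (log2 fold change -0.03, SE 0.65) and Epcam with 343 and 420 against 401 and 299 (-0.14, SE 0.25). Their part in the result was not tested.

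Of 7 endothelial markers, 6 were under 0.1 RPKM in every library, among them Cdh5 and Tek, and Emcn was at 0. The summed RPKM of 19.8 and 21.8 in WT and 19.2 and 18.7 in KO came almost wholly from Pecam1, at 20.8 ± 1.51 and 18.9 ± 0.409 RPKM (SD, n = 2). The fibroblast and mural list summed to 0.426 and 0.451 RPKM in WT and 0.257 and 0.974 in KO, with Col3a1 and Dcn at 0. The B cell list summed to 0.656 to 2.03 RPKM, the myeloid and dendritic list to 2.22 to 5.21 and the erythroid list to 0.374 to 5.28 over the 4 libraries, with overlapping groups in the last 2 lists. The B cell sum was 0.656 and 1.30 in WT and 1.49 and 2.03 in KO. No tested marker in these lists of other cell types was called, against 14.5% of all genes tested. The standard errors of these markers ran from 0.08 (Pecam1) to 2.22 (Kdr). For markers with few counts a large change could therefore go uncalled. Those tested were 4 of 8 epithelial, 2 of 7 endothelial and 2 of 6 fibroblast and mural markers. For B cells 3 of 4 were tested, for myeloid and dendritic cells 4 of 6 and for erythroid cells 2 of 3.

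Of 45 genes that carry Eph and ephrin signals inside the cell, 40 were tested, of which 5 rose, 3 fell and 32 were not called. Over all genes tested, 14.5% were called, 6.63% higher and 7.89% lower. The median log2 fold change was 0.02 in the list and 0.00 over all genes. The called genes changed by at most 0.60 log2 units. Efnb1 and Efnb2 changed by more, but they belong to the set that was chosen by its differences in this contrast.

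Among adaptors and kinases, 2 of 16 tested genes rose and 2 fell. The adaptors Nck1 and Nck2, which link phosphorylated Eph receptors and ephrin-B tails to the actin machinery, both fell. Nck1 went from 11.1 ± 0.337 to 7.99 ± 0.0175 RPKM (SD, n = 2, log2 fold change -0.47, SE 0.12, edgeR adjusted p = 0.0196). Leaving out WT replicate 1 ended that call (adjusted p = 0.107). Nck2 went from 60.9 ± 0.227 to 49.3 ± 0.273 RPKM (-0.30, SE 0.07, edgeR adjusted p = 0.0139), a call that ended on leaving out either WT replicate 1 (0.0695) or WT replicate 2 (0.0593). The SH2 adaptors Grb2 (0.35, SE 0.09, edgeR adjusted p = 0.0152) and Crk (0.41, SE 0.09, 0.00717) rose, and that of Grb2 was no longer called on leaving out WT replicate 1 (0.153).

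Pak2, a kinase activated by Rac and Cdc42, rose from 19.9 ± 0.523 to 30.1 ± 0.548 RPKM (SD, n = 2, log2 fold change 0.60, SE 0.08, edgeR adjusted p = 0.000333). Rhoa, the GTPase through which Eph receptors drive retraction of the cell edge, rose from 31.5 ± 0.347 to 43.0 ± 3.88 RPKM (0.45, SE 0.08, edgeR adjusted p = 0.00234). Both kept their calls without any single library.

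Among genes of ephrin reverse signalling and shedding, 1 of 8 tested genes rose. Dvl2, a Dishevelled adaptor that binds ephrin-B signalling complexes, rose from 7.82 ± 0.0749 to 11.5 ± 0.445 RPKM (SD, n = 2, log2 fold change 0.55, SE 0.10, edgeR adjusted p = 0.00310). With limma on log2 of the RPKM plus 0.1, the adjusted p was 0.0651 for Nck1, 0.0504 for Nck2, 0.0834 for Grb2 and 0.0559 for Crk, which were then not called, and with 0.5 added that of Dvl2 was 0.0503.

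**Figure D4:**
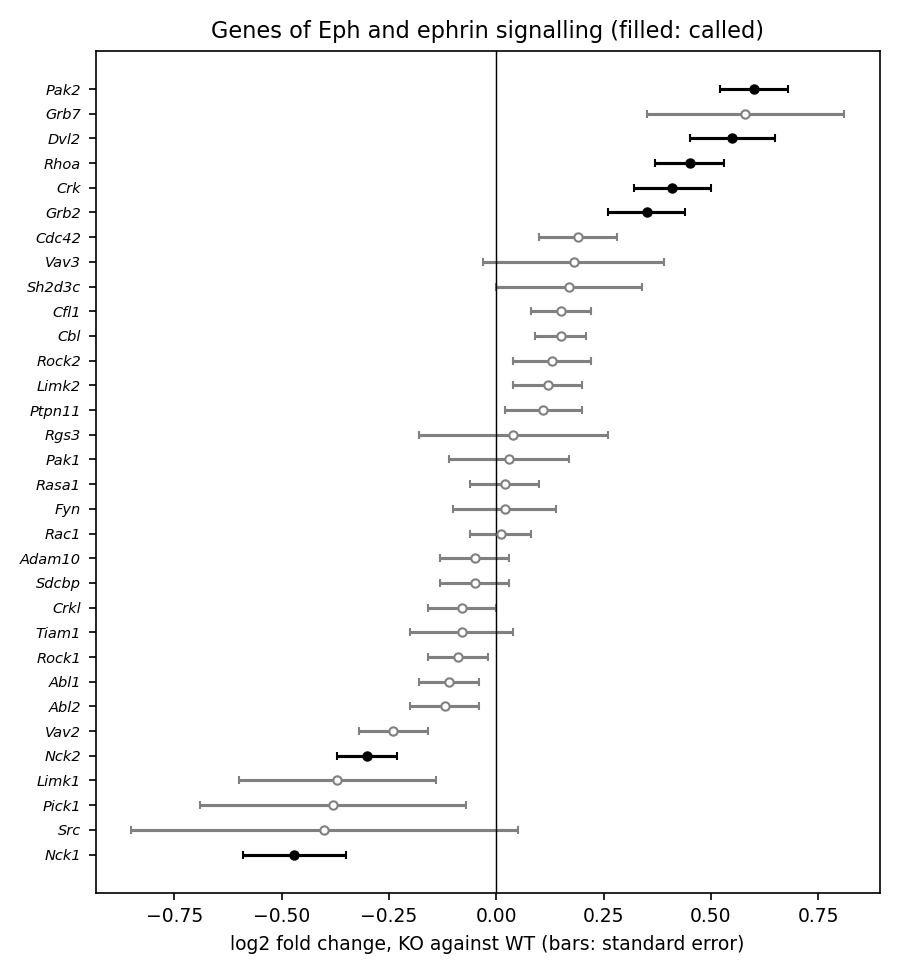
Log2 fold change of KO against WT with its standard error for 32 of the 40 tested signalling genes, all with a standard error under 0.5, called genes filled. The 7 filled points lie between -0.47 (Nck1) and 0.60 (Pak2).

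**Figure D5:**
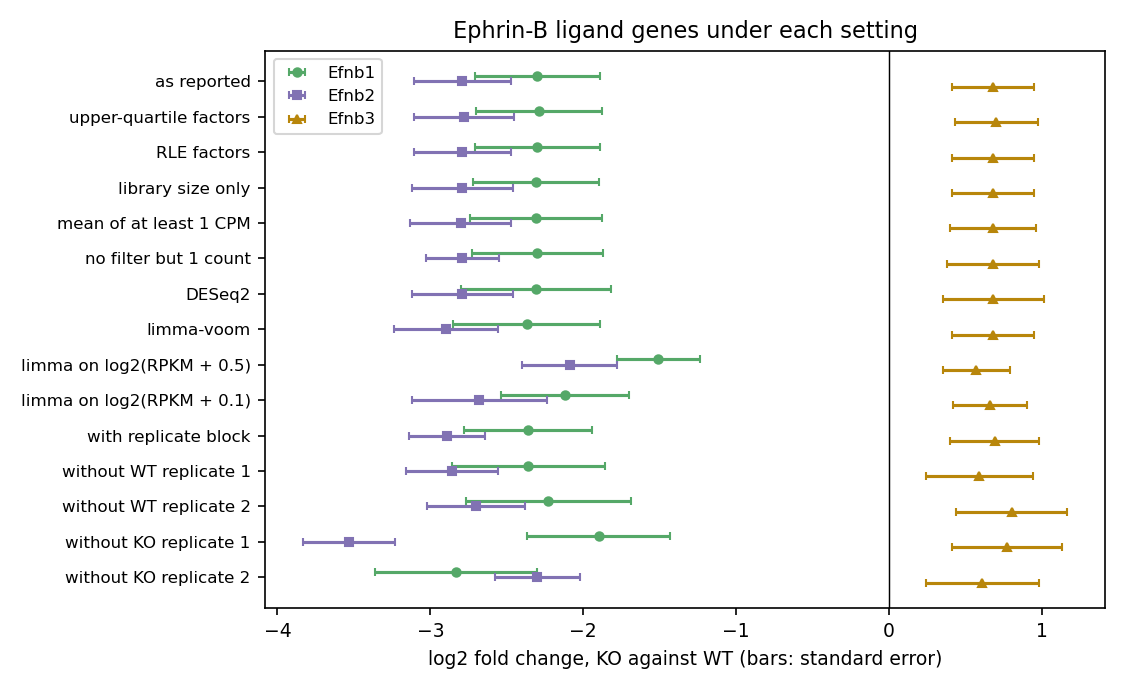
Log2 fold change with its standard error of Efnb1, Efnb2 and Efnb3 in the fit as reported and under 14 other settings. Efnb1 and Efnb2 lie below 0 and Efnb3 above 0 under each, with Efnb2 between -3.53 and -2.09.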

How the data were processed

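Raw counts per gene were deposited for each of the 4 libraries. The authors also deposited RPKM values with a gene length, and each RPKM equals the count over that length and the library total (relative tolerance 1e-06). Per the submitters' processing notes, the tools included STAR 2.6.0a and HTSeq 0.6.1, with cutadapt 1.17, FastQC 0.11.5 and DESeq2 1.24.0, and the build was GRCm38. The sources used here give neither the annotation release nor the strand setting. The length equals the union of exons in GENCODE M21 for all 51464 matched identifiers, and coordinates are from M21.

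The quasi-likelihood test of edgeR 4.0.16 was run on the counts (robust, TMM, filterByExpr, genotype only) in R 4.3.3, two-sided, with Benjamini-Hochberg adjustment over all 16588 genes tested. Called means an adjusted p under 0.05. The script was checked on simulated data. Standard errors come from the fold change and the F statistic. Alternatives used other scaling factors and filters, DESeq2 1.42.0, limma 3.58.1, a replicate block and leaving out each library. Genes named are the 10 of the set, other family genes with a mean of at least 0.1 RPKM, called signalling genes (1 is not reported here), Srsf1 and leading markers. Ephb3, the family genes near 0 and the markers beyond the leading ones were named after their values were seen. The members and lists were chosen with earlier results of these data known. At these depths 1 count equals 0.0270 to 0.0279 RPKM for a gene of 1 kb. Replicate libraries differed by more than sampling noise (chi-square over degrees of freedom 16.7 for WT and 19.0 for KO). Protein sequences are not used here.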

Additional observations from a re-analysis of the deposited data

How the results depend on the processing

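Efnb2 kept its direction and its call under all 14 alternatives (log2 fold change -3.53 to -2.09), and Efnb1 its direction under all 14 and its call under 13. With limma on log2 of the RPKM plus 0.1, 1 gene of the set was called lower, and with 0.5 added both were. Over all genes limma called 398 higher and 542 lower with 0.5 added and 392 and 553 with 0.1 added, against 1100 and 1308. Of the signalling genes, it called 2 higher and 1 lower with 0.5 added and 3 higher and 0 lower with 0.1 added. The causes were not tested. Without 1 library, 1 to 3 signalling genes were called lower.

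Ephb2, which was not called, changed sign with upper-quartile factors (0.00), limma-voom (0.02), limma on RPKM (0.00 with 0.5 and 0.01 with 0.1 added) and the replicate block (0.01). Without 1 library the log2 fold change ranged from -0.26 to 0.31 for Ephb2, -0.24 to 0.48 for Efna4, -0.01 to 0.14 for Ephb6 and -0.71 to 0.34 for Epha1. The labels give both groups replicates 1 and 2 and do not say whether the numbers pair the libraries. Over the tested genes, the deviations of same-numbered libraries from their group means had a correlation of -0.0391. This shows no shared shift, but it cannot show whether the animals or the preparation were paired. The replicate block gave 1304 higher and 1505 lower calls and the same 2 calls in the set. The 4 genes of the set with at most 13 counts in any library did not pass the filter on low counts. Where 1 library was left out, the lone library of its group was assumed to vary like the other group.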
